A study of Homo sapiens with 6 samples.

Results

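The genes described here are the DNA replication machinery, 58 genes fixed by name in 15 groups by subcomplex, out of the 60671 genes of the deposited table. They were read in U87, a long-established line of human glioblastoma cells, and all 58 were found. The gene name in the table identified 57 of them, and UHRF1 (ENSG00000276043), whose row carried no name, was found by its Ensembl identifier. The RNA-Seq experiment compared 3 libraries of U87 cells exposed for 48 h to 100 μM rutaecarpine, an alkaloid of Evodia rutaecarpa that activates the aryl hydrocarbon receptor (AhR), with 3 solvent control libraries of cells exposed to DMSO at 0.1%. Rutaecarpine was brought from a DMSO stock into medium without serum, and the sources do not spell out the control medium, so a difference in serum cannot be told apart from the compound unless both lacked it. The study describes its replicates in general as independent experiments, but nothing ties the libraries of a group to separate cultures, so p values measure only the spread between these libraries, which may be technical. The experiment was set up to look for genes of cell migration.

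A replication origin is licensed when the origin recognition complex (ORC), CDC6 and CDT1 load the ring of MCM2 to MCM7 onto DNA in G1 phase. At the start of S phase, the kinase CDC7 with its activator DBF4, together with cyclin E and its kinase, lets CDC45 and the GINS complex join the ring, which then unwinds DNA ahead of the polymerases. Many of these genes are transcribed mainly around the entry into S phase under E2F transcription factors. Some others, such as ORC2 to ORC5, are known to be expressed through the whole cell cycle. In bulk RNA, fewer cells in S phase and less RNA per cell cannot be told apart.

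The values are TPM, the share of a library's transcripts that a gene takes, corrected for gene length. Levels can thus be compared between genes, but read numbers are lost, so the depth behind each value is unknown and counting error could not be computed. A TPM of at least 1 was reached by 13758 to 14475 genes in a library. Changes were computed on log2(TPM + 1) with limma over the 14377 genes that reached 1 TPM in 3 or more libraries, which included all 58 replication genes. A gene is called here when its p value adjusted by the Benjamini-Hochberg method over all tested genes was at most 0.05, and is a DEG when its absolute log2 fold change was also above 1. For a single gene, 3 libraries against 3 cannot give an exact permutation p below 0.1. Control replicate 3 differed from both other controls, with a median log2(TPM + 1) of the tested genes of 3.56 against 3.97 and 3.95, and 42 of the 58 replication genes were lower in it than in both other controls. The markers of the line were mixed. VIM was between 4430 and 7968 TPM and CD44 between 415 and 837 TPM, but SOX2 and S100B were at or near 0 (at most 0.25 TPM), as were CDKN2A and MTAP, a pair of genes known to be deleted in U87 cells (at most 0.06 TPM). The glial markers NES, GFAP and OLIG2 were low, at 12.29 to 21.02, 3.48 to 5.41 and 1.48 to 4.11 TPM. The leukocyte and neuron markers PTPRC and RBFOX3 reached at most 0.15 TPM, and EPCAM and PECAM1 at most 1.33 TPM.

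Genes from nearly every step of DNA replication were lower after rutaecarpine, led by TK1, TYMS, GINS2, UHRF1 and MCM3. Of the 58 genes, 28 were called and all 28 were lower, with 0 called higher. They were at 30.9% to 76.0% of their mean control TPM. Over all tested genes, 4.68% were called lower and 4.6% were called higher. Of the 28, 12 were DEGs (the 5 above with ORC1, MCM5, POLA2, MCM2, MCM10, CDT1 and RRM2) and 0 were DEGs in the other direction, where 1.5% of all tested genes were lower DEGs and 2.01% were higher DEGs. All 3 rutaecarpine libraries lay below all 3 control libraries for 46 of the 58 genes and above them for 0, where 14% of all tested genes lay wholly below and 19.3% wholly above. Without control replicate 3, all 3 rutaecarpine libraries lay below both other controls for 53 of the 58 genes, against 26.5% of all tested genes.

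The median log2 fold change of the 58 genes was -0.72, against 0.08 over all tested genes, and 53 of the 58 had a negative value. The TPM of the 58 genes summed to 2309, 2227 and 2032 in control replicates 1, 2 and 3 and to 1316, 1204 and 1296 in rutaecarpine replicates 1, 2 and 3. The summed TPM after rutaecarpine was thus 58.1% of the control mean, with no overlap of the groups. The reference gene GAPDH had 11165, 11285 and 12216 TPM in the controls and 10927, 10518 and 9899 TPM after rutaecarpine, a log2 fold change of -0.15 ± 0.09 (SE) and an adjusted p of 0.36 in limma, and its groups did not overlap either.

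**Figure D1:**
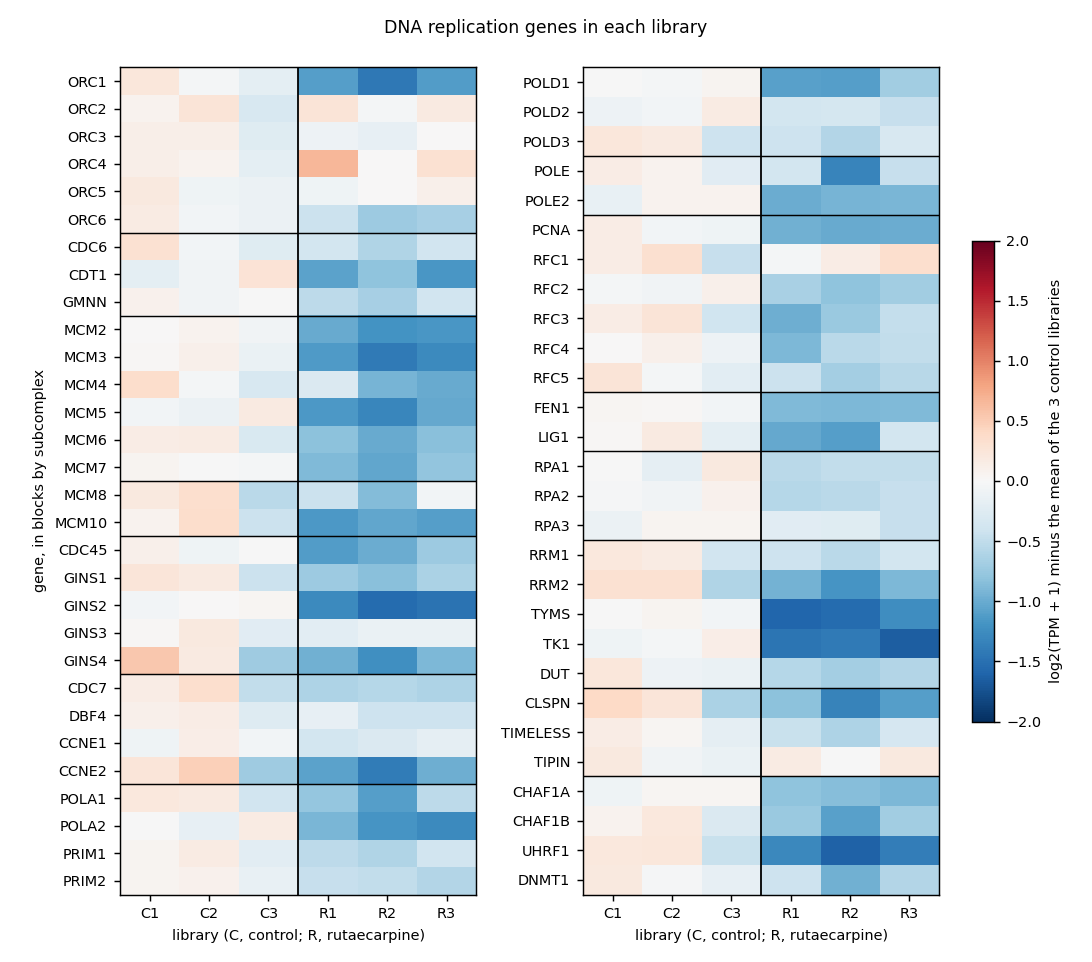
Each row is a replication gene and each column a library (C1 to C3, control; R1 to R3, rutaecarpine). Colours give log2(TPM + 1) minus the mean of the 3 control libraries, and black lines part the subcomplexes. The rutaecarpine columns are blue for most genes, with ORC2 to ORC5, GINS3, RFC1 and TIPIN near white or pale, and control replicate 3 is paler blue for many genes.

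The number of calls depended on single libraries, while the direction of the called genes did not. Without control replicate 3, 47 of the 58 genes were called, among them all 28 of the above, and 16 were DEGs, where 10.3% and 2.3% of all tested genes were called lower and were lower DEGs. The 16 held 11 of the 12 DEGs above, as CDT1 was no longer one. Leaving out rutaecarpine replicate 1, 2 or 3 left 16, 17 and 16 genes called, and leaving out control replicate 1 or 2 left 19 in either case. Of all tested genes, 2.08%, 2.11% and 1.82% were called lower without rutaecarpine replicate 1, 2 and 3. The share was 2.08% and 2.25% without control replicate 1 and 2. In every one of these fits, 0 replication genes were called higher. Of the 28 genes, 15 were called in all 6 fits that left out a library, namely ORC1, MCM2, MCM3, MCM5, MCM7, CDC45, GINS2, POLD1, PCNA, RFC2, FEN1, TYMS, TK1, CHAF1A and UHRF1. Another 8, namely ORC6, MCM6, MCM10, POLD2, RFC4, RPA1, RRM2 and CHAF1B, were called in 1 of the 6, that without control replicate 3. The share of all tested genes called lower in all 6 fits was not computed, but cannot exceed 1.82%, the lowest of the 6. When the libraries were centred on their medians, the DEGs over all genes turned from 289 higher and 216 lower to 251 higher and 295 lower (280 and 330 without control replicate 3), and the replication genes called from 28 to 43, with 0 higher. The share of all tested genes called lower went from 4.68% to 5.47%. The 43 held 25 of the 28, as POLD2, RPA1 and RPA2 were no longer called, with adjusted p values of 0.18, 0.113 and 0.059 in limma.

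The choice of the genes did not use their sequences, and their promoters were searched for short motifs. The motifs were chosen with earlier results of these data known, and many of the genes are known to be under E2F factors. How often a motif occurs in the listed genes is a property of the list and holds whatever the treatment. The promoter windows from RefSeq (GRCh38.p14), which run from 250 bases before to 50 bases after a gene's start, were available for 51 of the 58 genes. An E2F-type octamer (TTTCCCGC, TTTGGCGC, TTTCGCGC or TTTGCCGC, on either strand) was found in the windows of 26 of the 51 genes (51.0%). It was found in 3.99% of all 27305 genes with a window and in 6.75% of the 10353 of these that were tested here. It was held by 12 of the 26 called genes with a window (46.2%) and by 14 of the 25 that were not called (56.0%). The CCAAT box (CCAAT on either strand, like the motifs that follow) was found in 58.8% of the 51 genes, 43.2% of the tested genes and 39.7% of all genes. The hexamer TTTGAA, known as the CHR element, was found in 5.88%, 13.8% and 18.2% of them. The core of the AhR binding site, GCGTG, was found in 60.8% of the 51 genes, 58.4% of the tested genes and 40.6% of all genes. It was held by 20 of the 26 called genes and 11 of the 25 that were not called, a difference that was not tested. For the CCAAT box these numbers were 15 and 15, and for the CHR element 1 and 2. The paper searched for a longer form of the AhR site in a longer stretch upstream of its candidate genes. No motif of one kind was masked where it overlapped another. A match of letters is not a site of binding, and a gene with several starts was counted once if any of its windows held the motif.

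The bases directly before the start are shown for 8 genes, 5' to 3', to let the octamer be seen in genes that were called and to set beside them 2 genes that were not. These examples do not reflect the shares above, where 46.2% of called genes and 56.0% of those not called held the octamer. Capitals mark the E2F-type octamer in TYMS, GINS2, MCM6, POLA2 and PCNA. In TK1, which had the lowest log2 fold change of the 58 genes and no octamer in its windows, they mark the CCAAT box, which is read as ATTGG on the strand shown. ORC5 and RFC1, which were not called, had neither in the stretch shown. The window of RFC1 held a CCAAT box outside that stretch, and the CCAAT boxes in the stretches of MCM6 and PCNA are not marked. The stretches lie at chr18:657553-657652 (plus strand) for TYMS, chr16:85688955-85689054 (minus strand) for GINS2, chr2:135876444-135876603 (minus strand) for MCM6, chr11:65261862-65261961 (plus strand) for POLA2, chr20:5126623-5126722 (minus strand) for PCNA, chr17:78187053-78187172 (minus strand) for TK1, chr7:104208014-104208113 (minus strand) for ORC5 and chr4:39366363-39366462 (minus strand) for RFC1. The octamer begins at position -39 in TYMS, -31 in GINS2, -53 in POLA2 and -59 in PCNA, counted from the start. In MCM6 it occurs 4 times as 2 overlapping pairs, at -152 and -148 and at -90 and -86, and the CCAAT boxes of TK1 begin at -77 and -46.
TYMS: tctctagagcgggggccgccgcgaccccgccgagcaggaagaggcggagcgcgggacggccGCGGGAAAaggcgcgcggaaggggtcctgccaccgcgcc
GINS2: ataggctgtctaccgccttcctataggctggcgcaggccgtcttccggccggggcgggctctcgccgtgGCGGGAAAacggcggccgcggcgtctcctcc
MCM6: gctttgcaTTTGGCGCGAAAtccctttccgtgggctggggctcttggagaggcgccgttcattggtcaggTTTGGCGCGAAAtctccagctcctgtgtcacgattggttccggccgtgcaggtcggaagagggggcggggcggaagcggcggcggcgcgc
POLA2: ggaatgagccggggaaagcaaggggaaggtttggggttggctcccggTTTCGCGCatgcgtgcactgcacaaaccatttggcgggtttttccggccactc
PCNA: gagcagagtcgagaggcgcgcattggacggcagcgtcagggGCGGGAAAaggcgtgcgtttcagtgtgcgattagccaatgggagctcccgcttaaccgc
TK1: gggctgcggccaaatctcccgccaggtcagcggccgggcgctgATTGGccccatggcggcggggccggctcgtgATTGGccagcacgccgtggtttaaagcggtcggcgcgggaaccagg
ORC5: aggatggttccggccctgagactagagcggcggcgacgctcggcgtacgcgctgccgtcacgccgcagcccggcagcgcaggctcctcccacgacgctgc
RFC1: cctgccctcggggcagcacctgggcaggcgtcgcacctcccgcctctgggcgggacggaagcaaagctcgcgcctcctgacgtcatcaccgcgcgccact

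Among the origin recognition genes, ORC1 and ORC6 fell, and the 4 others were not called. ORC1 (ENSG00000085840), the largest subunit, which binds ATP and is degraded after the start of S phase, had 8.37, 6.81 and 5.97 TPM in the controls and 2.74, 1.96 and 2.69 TPM after rutaecarpine. It fell to 34.9% of control, with a log2 fold change of -1.21 ± 0.19 (SE) and an adjusted p of 0.00979 in limma. ORC6, the smallest subunit, fell from 25.3 ± 2.81 to 16.3 ± 1.91 TPM (mean ± SD, n = 3, as for all such values here), with 28.5, 24.3 and 23.2 against 18.4, 14.9 and 15.5 TPM in the single libraries, a log2 fold change of -0.61 and an adjusted p of 0.0386 in limma. Both genes had groups that did not overlap. ORC2, ORC3, ORC4 and ORC5, which form the core of the complex, were not called and their groups overlapped. Their log2 fold changes were 0.13, -0.09, 0.33 and 0.01, and those of ORC2 and ORC5 turned below 0 without control replicate 3. ORC4 had the highest log2 fold change of all 58 genes, with 16.2, 15.7 and 12.8 TPM in the controls and 24.1, 14.9 and 18.6 TPM after rutaecarpine, where only rutaecarpine replicates 1 and 3 lay above all controls. Within each library, ORC1 over the mean of ORC2 to ORC5 was 0.580, 0.488 and 0.534 in the control libraries and 0.178, 0.156 and 0.184 in the rutaecarpine libraries. This ratio does not depend on how libraries are scaled, and its groups did not overlap. It was chosen, like the other ratios below, after the values were seen and is given without a test.

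Of the licensing factors, CDT1 was called. CDT1 (ENSG00000167513), which brings the MCM ring to the origin, had 18.2, 19.9 and 25.4 TPM in the controls and 9.50, 11.5 and 8.77 TPM after rutaecarpine. Its log2 fold change was -1.01 ± 0.17 (SE) with an adjusted p of 0.0138 in limma, and it was the highest in control replicate 3. Without that library the log2 fold change was -0.88 with an adjusted p of 0.00592, so CDT1 was called but was not a DEG. It was called in 4 of the 6 fits that left out a library and was a DEG in 3. GMNN, or geminin, which binds CDT1 and blocks licensing again after the start of S phase, went from 14 ± 0.860 to 9.45 ± 0.997 TPM with an adjusted p of 0.0635 in limma. CDC6, the ATPase that loads the ring with ORC, had 27.6, 21.4 and 18.7 TPM in the controls and 17.1, 14.3 and 16.9 TPM after rutaecarpine, a log2 fold change of -0.45 with an adjusted p of 0.159. All 3 genes had groups that did not overlap, although rutaecarpine replicate 1 of CDC6 lay close below control replicate 3. The ratio of CDT1 to GMNN overlapped between the groups, at 1.22, 1.502 and 1.84 in the control libraries and 1.01, 1.36 and 0.837 in the rutaecarpine libraries.

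The ring of the replicative helicase had 5 of its 6 genes called. MCM2, MCM3, MCM5, MCM6 and MCM7 were called lower, MCM4 was not called, and the 6 genes stood at 40.8% to 59.8% of control. MCM3 (ENSG00000112118) had 90.2, 95.0 and 81.1 TPM in the controls and 39.95, 32.6 and 36.1 TPM after rutaecarpine, a log2 fold change of -1.27 ± 0.11 (SE) and an adjusted p of 0.00115 in limma. MCM2 (ENSG00000073111) had 64.8, 68.2 and 61.5 TPM in the controls and 31.6, 27.8 and 28.5 TPM after rutaecarpine, with a log2 fold change of -1.12 and an adjusted p of 0.00113. MCM5 (ENSG00000100297) had 57.6, 55.4 and 67.9 TPM in the controls and 26.6, 23.6 and 29.04 TPM after rutaecarpine, with a log2 fold change of -1.16 and an adjusted p of 0.00224. In these 3 genes each rutaecarpine library was far below each control, and they were DEGs in all 6 fits that left out a library. MCM7 fell from 95.6 ± 2.90 to 50.8 ± 4.52 TPM (log2 fold change -0.90, adjusted p = 0.00207 in limma), with 98.8, 94.6 and 93.3 against 51.6, 45.9 and 54.8 TPM in the single libraries. MCM6 had 39.4, 39.6 and 28.3 TPM in the controls and 19.6, 17.0 and 19.4 TPM after rutaecarpine, and control replicate 3 was at 71.6% of the mean of the other controls. Its log2 fold change was -0.89 with an adjusted p of 0.0157. MCM4 had 122, 92.4 and 76.0 TPM in the controls and 77.5, 49.2 and 47.0 TPM after rutaecarpine, so that rutaecarpine replicate 1 lay just above control replicate 3, with a log2 fold change of -0.74 and an adjusted p of 0.11, which was 0.0306 without control replicate 3. The 6 subunits assemble in equal numbers, and their mean control levels ran from 35.8 TPM for MCM6 to 96.8 TPM for MCM4.

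The other MCM proteins are not part of the ring. MCM10 (ENSG00000065328), which helps the assembled helicase start, had 5.36, 6.73 and 3.45 TPM in the controls and 1.73, 1.93 and 1.82 TPM after rutaecarpine. All 3 rutaecarpine libraries were close to each other and below every control, but control replicate 3 was at 57.1% of the mean of the other controls. Its log2 fold change was -1.09 (adjusted p = 0.03 from limma), and -1.31 without control replicate 3. MCM8, a helicase of recombination repair rather than of the fork, had 4.62, 5.21 and 2.38 TPM in the controls and 2.66, 1.68 and 3.72 TPM after rutaecarpine with overlapping groups, and was not called (log2 fold change -0.45, adjusted p = 0.419).

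CDC45 and GINS turn the ring into the active helicase. GINS2 (ENSG00000131153) had 9.75, 10.2 and 10.5 TPM in the controls and 3.61, 2.83 and 3.00 TPM after rutaecarpine, the lowest percentage of control among the 58 genes at 30.9%. Its log2 fold change was -1.43 ± 0.15 (SE) and an adjusted p of 0.00224 in limma. CDC45 had 24.7, 21.7 and 22.8 TPM in the controls and 10.1, 11.1 and 13.6 TPM after rutaecarpine, and fell with a log2 fold change of -0.94 and an adjusted p of 0.0088. Both kept their call in all 6 fits that left out a library. GINS3 was not called, with 6.71, 7.64 and 5.45 TPM in the controls and 5.53, 5.87 and 5.91 TPM after rutaecarpine, overlapping groups and a log2 fold change of -0.16 (adjusted p = 0.6). GINS4 had 22.7, 17.5 and 9.03 TPM in the controls and 7.39, 6 and 7.82 TPM after rutaecarpine, and although the groups did not overlap and its log2 fold change was -1.03, the adjusted p was 0.096. Control replicate 3 of GINS4 was at 45.0% of the mean of the other controls, and without that library the log2 fold change was -1.38 with an adjusted p of 0.00168. GINS1 went from 3.86 ± 1.15 to 1.87 ± 0.195 TPM (adjusted p = 0.0963). GINS2 over GINS3 was 1.45, 1.34 and 1.93 in the control libraries and 0.653, 0.482 and 0.508 in the rutaecarpine libraries, without overlap.

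None of the 4 genes of the origin-firing kinases and cyclin E was called with all libraries. CCNE2, a cyclin E, had 8.68, 10.4 and 4.02 TPM in the controls and 2.91, 2.13 and 3.19 TPM after rutaecarpine, a log2 fold change of -1.14 and an adjusted p of 0.0762 in limma. Control replicate 3 was at 42.2% of the mean of the other controls, and without it the log2 fold change was -1.498 with an adjusted p of 0.00202. CCNE1, the other cyclin E, had 7.29, 8.68 and 7.50 TPM in the controls and 5.79, 6.20 and 6.75 TPM after rutaecarpine, with groups that did not overlap, a log2 fold change of -0.28 and an adjusted p of 0.307. Within libraries, CCNE2 over CCNE1 was 1.19, 1.196 and 0.536 in the control libraries and 0.503, 0.344 and 0.473 in the rutaecarpine libraries. That ratio in control replicate 3 was close to those of the rutaecarpine libraries. CDC7, the kinase that phosphorylates the MCM ring, went from 5.63 ± 1.84 to 3.24 ± 0.0737 TPM (adjusted p = 0.179), and DBF4, its activator, from 12.8 ± 2.04 to 9.85 ± 1.10 TPM (adjusted p = 0.275). Both were called without control replicate 3, with adjusted p values of 0.00916 and 0.0476.

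Among the polymerases, at least 1 subunit of each enzyme was called lower. POLA2 (ENSG00000014138), the regulatory subunit of polymerase alpha, which starts each new strand with primase, had 12.2, 10.8 and 13.9 TPM in the controls and 6.02, 4.83 and 4.48 TPM after rutaecarpine, a log2 fold change of -1.12 ± 0.17 (SE) and an adjusted p of 0.00868 in limma. The groups of the other alpha-primase genes did not overlap either, but none was called. PRIM1, the catalytic primase subunit, had the smallest log2 fold change of them, with 22.4, 24.0 and 18.4 TPM in the controls and 14.6, 13.8 and 16.2 TPM after rutaecarpine, a log2 fold change of -0.50 and an adjusted p of 0.0779. PRIM2 and POLA1 had log2 fold changes of -0.51 and -0.80, with adjusted p values of 0.0694 and 0.0927.

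For polymerase delta, which copies the lagging strand, the catalytic subunit POLD1 had 30.8, 30.01 and 32.0 TPM in the controls and 14.1, 13.9 and 18.7 TPM after rutaecarpine, a log2 fold change of -0.96 and an adjusted p of 0.00756 in limma. POLD2, a small subunit and with a mean control level of 198 TPM the most abundant of the 58 genes, had 184, 189 and 221 TPM in the controls and 153, 155 and 143 TPM after rutaecarpine. Its log2 fold change was -0.39 with an adjusted p of 0.0465, and it was not called after median centring (adjusted p = 0.18). POLD3 was not called (log2 fold change -0.44, adjusted p = 0.266). For polymerase epsilon, which copies the leading strand, POLE2 had 5.06, 6.09 and 6.10 TPM in the controls and 2.38, 2.53 and 2.56 TPM after rutaecarpine, a log2 fold change of -0.95 and an adjusted p of 0.0125. The catalytic subunit POLE had 23.7, 22.5 and 18.1 TPM in the controls and 16.3, 7.94 and 15.2 TPM after rutaecarpine. Rutaecarpine replicate 2 of POLE was far below the other rutaecarpine libraries, and the gene was not called (log2 fold change -0.72, adjusted p = 0.158).

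The sliding clamp PCNA, which tethers polymerases to DNA, had 101, 87.3 and 85.4 TPM in the controls and 46.2, 44.9 and 45.4 TPM after rutaecarpine. The rutaecarpine libraries were close to each other and at 49.8% of control, a log2 fold change of -0.99 ± 0.10 (SE) and an adjusted p of 0.00156 in limma. Of the clamp loader, which opens PCNA and sets it on DNA, the small subunits RFC2 and RFC4 were called lower. RFC2 had 39.3, 38.3 and 43.5 TPM in the controls and 25.3, 22.7 and 24.4 TPM after rutaecarpine, with a log2 fold change of -0.72 and an adjusted p of 0.0072. RFC4 had 32.3, 34.6 and 29.8 TPM in the controls and 16.8, 21.8 and 22.7 TPM after rutaecarpine, with a log2 fold change of -0.64 and an adjusted p of 0.0363. RFC3 and RFC5 were lower in all 3 rutaecarpine libraries without being called, with log2 fold changes of -0.73 and -0.56 and adjusted p values of 0.0952 and 0.0763. RFC1, the large subunit, had 40.4, 45.7 and 26.1 TPM in the controls and 35.4, 40.2 and 46.0 TPM after rutaecarpine. Its groups overlapped, with a log2 fold change of 0.14 (adjusted p = 0.709) that was -0.09 without control replicate 3. RFC1 over the mean of RFC2 to RFC5 was 1.38, 1.59 and 0.995 in the control libraries and 2.13, 2.38 and 2.51 in the rutaecarpine libraries, higher in each rutaecarpine library than in any control.

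**Figure D2:**
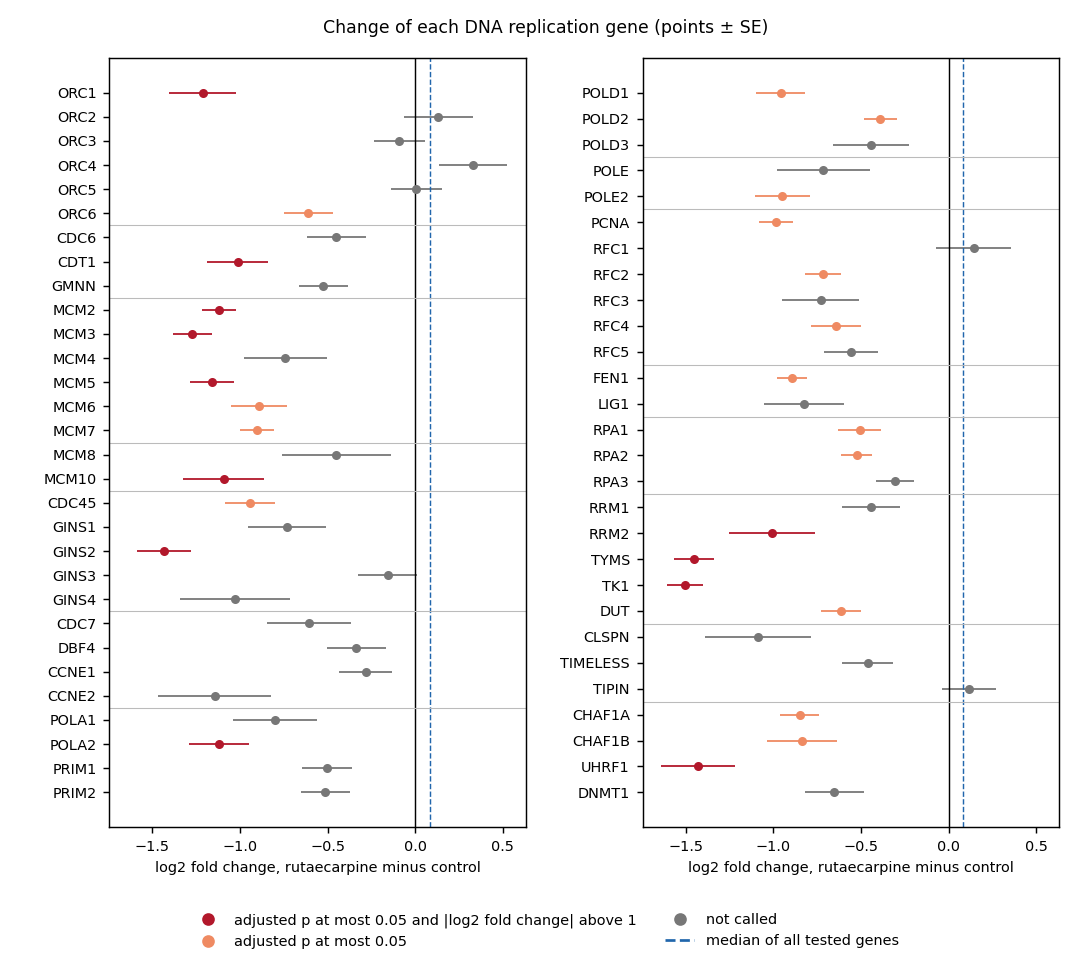
Points are log2 fold changes of log2(TPM + 1), rutaecarpine minus control, with bars of ± the standard error from limma, for the 58 genes in blocks by subcomplex. Dark red marks the 12 DEGs, orange the other called genes and grey those not called, and the dashed line is the median of all tested genes, 0.08. Points lie left of 0 for 53 of the 58 genes.

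In Okazaki fragment maturation, FEN1, the nuclease that trims the flap of each fragment, had 68.0, 67.8 and 63.6 TPM in the controls and 35.4, 35.1 and 35.4 TPM after rutaecarpine. Its rutaecarpine libraries were nearly equal, with a log2 fold change of -0.89 ± 0.08 (SE) and an adjusted p of 0.00144 in limma. LIG1, the ligase that seals the fragments, had 15.4, 17.3 and 13.2 TPM in the controls and 6.99, 6.59 and 11.6 TPM after rutaecarpine, where rutaecarpine replicate 3 was nearer the controls. It was not called, with a log2 fold change of -0.83 and an adjusted p of 0.0724. Replication protein A, which coats single-stranded DNA, had a median log2 fold change of -0.51. RPA2 had 62.0, 60.0 and 66.6 TPM in the controls and 42.0, 42.8 and 45.3 TPM after rutaecarpine and fell with a log2 fold change of -0.52 (adjusted p = 0.0134). RPA1 had 35.2, 31.2 and 40.7 TPM in the controls and 24.2, 24.9 and 24.9 TPM after rutaecarpine, with a log2 fold change of -0.51 and an adjusted p of 0.0472. RPA1 was not called with the trend on length and GC content removed (adjusted p = 0.0724), and neither RPA1 nor RPA2 was called after median centring. RPA3 was not called, with 44.7, 50.5 and 50.5 TPM in the controls and 41.3, 41.0 and 35.1 TPM after rutaecarpine and a log2 fold change of -0.31 (adjusted p = 0.143). The groups of all 3 did not overlap.

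TK1 and TYMS, of nucleotide supply, had the lowest log2 fold changes of the 58 genes. TK1 (ENSG00000167900), the thymidine kinase of the salvage pathway, had 140.3, 145 and 163 TPM in the controls and 53.5, 55.6 and 46.7 TPM after rutaecarpine. It fell to 34.8% of control, a log2 fold change of -1.51 ± 0.10 (SE) and an adjusted p of 0.000466 in limma. TYMS (ENSG00000176890), thymidylate synthase, which makes the same nucleotide from dUMP, had 102, 106 and 98.3 TPM in the controls and 33.1, 34.6 and 42.5 TPM after rutaecarpine. Its log2 fold change was -1.46 ± 0.11 (SE) and an adjusted p of 0.000756 in limma. Every rutaecarpine library was far below every control for both genes, and leaving out any library kept the log2 fold change of TK1 between -1.56 and -1.43. DUT, the dUTPase that keeps uracil out of DNA and supplies dUMP, had 155, 123 and 121 TPM in the controls and 88.4, 82.1 and 87.3 TPM after rutaecarpine, with a log2 fold change of -0.61 and an adjusted p of 0.0189.

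Ribonucleotide reductase, which makes deoxyribonucleotides, had its small subunit called and its large subunit not. RRM2 (ENSG00000171848), the small subunit, whose level is known to peak in S phase, had 149, 148 and 79.1 TPM in the controls and 61.9, 52.9 and 64.4 TPM after rutaecarpine. The groups did not overlap, but control replicate 3 was at 53.3% of the mean of the other controls and close to the rutaecarpine libraries. The log2 fold change was -1.01 with an adjusted p of 0.0491, and -1.31 with an adjusted p of 0.000235 without control replicate 3. RRM1, the large subunit, had 70.0, 67.8 and 46.3 TPM in the controls and 45.0, 41.2 and 46.5 TPM after rutaecarpine, groups that overlapped at control replicate 3, a log2 fold change of -0.44 and an adjusted p of 0.163. Within libraries, RRM2 over RRM1 was 2.13, 2.19 and 1.71 in the control libraries and 1.38, 1.28 and 1.39 in the rutaecarpine libraries, without overlap. The 5 genes of nucleotide supply made up 24.96% to 26.7% of the summed TPM of the 58 genes in the control libraries and 21.4% to 22.2% in the rutaecarpine libraries.

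**Figure D3:**
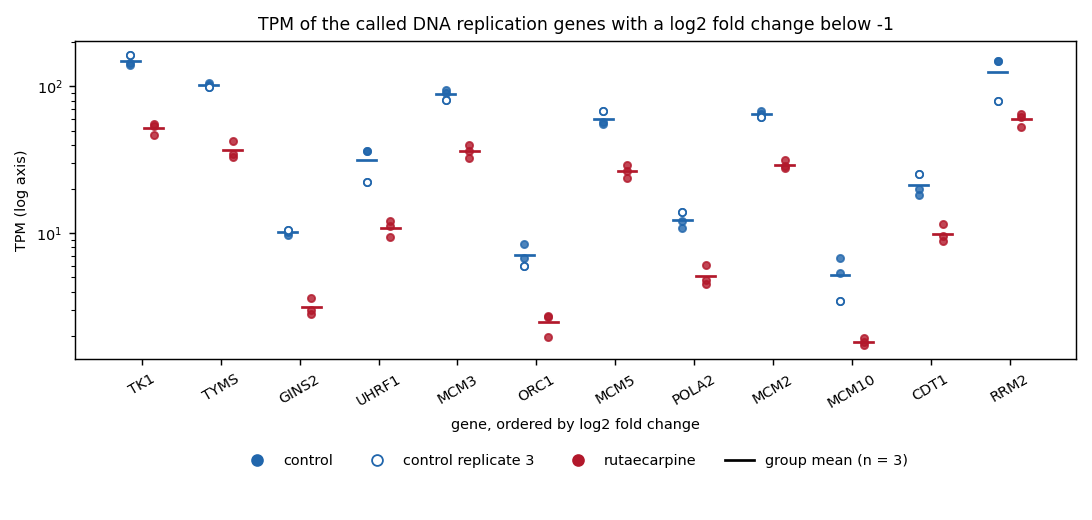
TPM (log axis) of the 12 DEGs among the replication genes in each control library (blue, with control replicate 3 as an open circle) and each rutaecarpine library (red), with lines at the group means (n = 3). The groups do not overlap for any of the 12 genes, and control replicate 3 is the lowest control by a wide margin for UHRF1, MCM10 and RRM2.

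The fork protection genes were not called with all libraries. CLSPN, claspin, which carries the checkpoint signal from a stalled fork, had 7.83, 6.91 and 3.35 TPM in the controls and 2.81, 1.65 and 2.12 TPM after rutaecarpine, a log2 fold change of -1.09 and an adjusted p of 0.0734 in limma. Control replicate 3 was at 45.5% of the mean of the other controls, and without it the log2 fold change was -1.40 with an adjusted p of 0.00362. TIMELESS and TIPIN form a complex that holds the helicase and polymerases together. TIMELESS went from 18.1 ± 2.15 to 12.8 ± 1.34 TPM (adjusted p = 0.106), while TIPIN had 10.6, 8.60 and 8.18 TPM in the controls and 10.3, 9.04 and 10.5 TPM after rutaecarpine, overlapping groups and a log2 fold change of 0.12 (adjusted p = 0.676). TIMELESS over TIPIN was 1.89, 2.15 and 1.93 in the control libraries and 1.26, 1.27 and 1.35 in the rutaecarpine libraries, again without overlap.

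**Figure D4:**
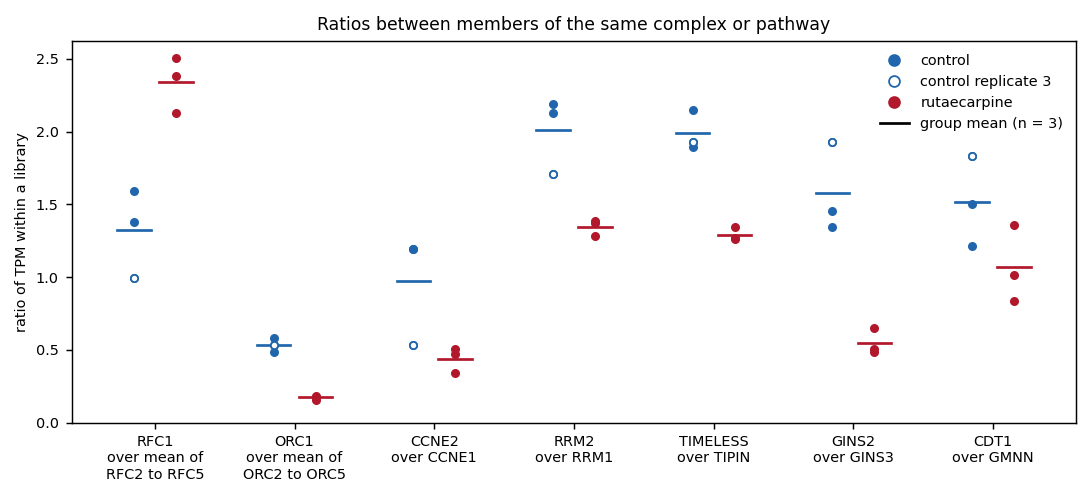
Ratios of TPM within each library between members of a complex or pathway, for control libraries (blue, control replicate 3 as an open circle) and rutaecarpine libraries (red), with lines at the group means (n = 3). The groups are apart for 6 of the 7 ratios and overlap for CDT1 over GMNN. The ratios were chosen after the values were seen, so this count is a description only.

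Behind the fork, 3 of the 4 genes of chromatin assembly and maintenance methylation were called lower. UHRF1, which reads hemimethylated DNA and brings DNMT1 to it, had 36.0, 36.5 and 22.4 TPM in the controls and 12.1, 9.45 and 11.2 TPM after rutaecarpine. It fell to 34.5% of control, with a log2 fold change of -1.43 ± 0.21 (SE) and an adjusted p of 0.0077 in limma, although control replicate 3 was at 61.8% of the mean of the other controls. DNMT1, the methyltransferase itself, had 51.9, 44.6 and 40.4 TPM in the controls and 33.9, 22.8 and 29.9 TPM after rutaecarpine, with groups that did not overlap, a log2 fold change of -0.65 and an adjusted p of 0.0602, which was 0.022 without control replicate 3. The large subunits of the histone chaperone CAF-1 were both called. CHAF1A had 23.4, 25.7 and 25.6 TPM in the controls and 13.8, 13.4 and 12.8 TPM after rutaecarpine, with a log2 fold change of -0.85 and an adjusted p of 0.00521. CHAF1B had 8.55, 9.63 and 6.52 TPM in the controls and 4.47, 3.32 and 4.65 TPM after rutaecarpine, with a log2 fold change of -0.84 and an adjusted p of 0.0459.

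Across the 15 subcomplexes, the median log2 fold change ran from -1.01 for the MCM2 to MCM7 ring and -1.01 for nucleotide supply to -0.04 for origin recognition, and was below 0 in each. The 8 genes that were called in no fit, with or without any library and under every other setting tried, were ORC2, ORC3, ORC4, ORC5, GINS3, CCNE1, RFC1 and TIPIN. The other 50 were called lower in at least 1 of them. The share of all tested genes called lower in at least 1 setting was not computed. In single settings it ran from 1.34% with the replicate number as a block to 14.1% with library weights.

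Another 42 genes of replication and S phase, listed apart from the 58, were read for the same comparison. Of these, 40 passed the filter on low TPM, ATAD5 and FAF1 being the others. Of the 40, 8 were called lower and 0 higher, with 6 DEGs, beside the 4.68% and 1.5% of all tested genes given above, and their median log2 fold change was -0.31. ASF1B, a histone chaperone that feeds CAF-1, had 61.0, 54.0 and 60.9 TPM in the controls and 22.1, 18.3 and 21.1 TPM after rutaecarpine (log2 fold change -1.47, adjusted p = 0.000719 from limma). RECQL4, a helicase of replication initiation, had 32.8, 35.3 and 35.3 TPM in the controls and 13.1, 15.8 and 14.4 TPM after rutaecarpine (log2 fold change -1.201, adjusted p = 0.0015). The remaining DEGs were CDCA7 and HELLS, partners in chromatin remodelling, PCLAF, a protein that binds PCNA, and RNASEH2A, the catalytic subunit of the RNase that removes RNA from DNA, with log2 fold changes of -1.40, -1.202, -1.02 and -1.01. TOP2A and DCTPP1 were called with log2 fold changes of -0.94 and -0.58. DTL, which helps destroy CDT1 in S phase, had 14.97, 11.4 and 5.97 TPM in the controls and 3.75, 3.22 and 4.14 TPM after rutaecarpine, without overlap, a log2 fold change of -1.25 and an adjusted p of 0.0501, and was not called. POLD4, the smallest polymerase delta subunit, had 52.4, 47.6 and 64.3 TPM in the controls and 76.6, 81.7 and 63.5 TPM after rutaecarpine, with overlapping groups and a log2 fold change of 0.43 (adjusted p = 0.128). Leaving out a library left 4 to 21 of the 40 genes called, 21 without control replicate 3 and 4 without each of the others. Of all tested genes, 10.3% were called lower without control replicate 3 and 1.82% to 2.25% without each of the others.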

How the data were processed

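Total RNA of U87 cells (3 rutaecarpine and 3 control libraries) was sequenced on an Illumina NovaSeq by a company, and gene levels were estimated with RSEM. The deposited values are TPM, 1 column per library. The submitters' processing notes name GRCh38.p13, RSEM, DESeq2 and edgeR. The aligner and the annotation release are not given in the sources used here. A minimum TPM that the study set for its migration genes was not used here. RSEM divides reads that match several genes, so genes with near-identical copies are uncertain. All 6 columns were matched to a sample by its label, and 0 were left over. Genes without a name in the table were named by Ensembl identifier.

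TPM were transformed to log2(TPM + 1), without further scaling. The 14377 genes that reached 1 TPM in 3 or more libraries were compared with limma 3.58.1 in R 4.3.3 (mean-variance trend, two-sided), with Benjamini-Hochberg adjustment over all of them. Fold changes on this scale understate those of low genes. The thresholds (adjusted p of at most 0.05, absolute log2 fold change above 1) follow the paper's methods. Count models were not used, as TPM keep no read numbers. The 58 genes, their subcomplexes, the further 42 genes and the motifs were chosen with earlier results of these data known. Values in every library are given for those of the 58 genes that were called or had an absolute log2 fold change of at least 1, and for the lowest and highest of each subcomplex, with a few others chosen after their values were seen. Of the further 42 genes, DEGs are named, with TOP2A, DCTPP1, DTL and POLD4 chosen after their values were seen. The code was tested on simulated data. Tables and figures were made in Python 3.11.15 with pandas 2.3.3, numpy 2.4.6 and matplotlib 3.10.9. Length and GC content came from GENCODE release 29 (14267 of the tested genes).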

Additional observations from a re-analysis of the deposited data

How the results depend on the processing

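All 28 genes called with all libraries were lower, and under each of the 14 other settings 0 replication genes were called higher. The count of called genes went from 28 to 43 after median centring of each library, 50 with library weights, 48 with a trend on length and GC content removed (natural splines with 5 degrees of freedom) and 47 without control replicate 3. Over all tested genes, the share called lower went from 4.68% to 5.47%, 14.1%, 10.2% and 10.3% in the same order. The count of called replication genes was 26 with a pseudocount of 0.1, 21 with no filter on low TPM, 28 with 1 TPM required in all 6 libraries and 27 without the mean-variance trend, and lay between 16 and 47 when a library was left out. The share of all tested genes called lower was then 4.52%, 1.5%, 5.11% and 4.3%, and lay between 1.82% and 10.3% when a library was left out. The 12 DEGs became 19 with centring and 2 at an adjusted p of at most 0.001, and lay between 9 and 16 when a library was left out. Of all tested genes, 1.5% were lower DEGs with all libraries, 2.05% with centring and 1.06% to 2.3% when a library was left out. The median log2 fold change of the 58 genes lay between -0.84 and -0.64. The 505 DEGs over all genes became 94 at an adjusted p of at most 0.001 and lay between 353 and 610 when a library was left out.

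Of the 40 other replication genes, the 6 DEGs became 1 at an adjusted p of at most 0.001 and lay between 2 and 8 when a library was left out, and the 8 called genes became 4 with no filter on low TPM, 23 with library weights and 22 with the length and GC trend removed, and lay between 4 and 21 when a library was left out. The shares or counts of all tested genes that were called lower or were lower DEGs in these settings are those given above. In each case the cause was not tested.

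With the replicate number as a block, 12 of the 58 genes were called, 11 of them among the 28, and 7 were DEGs, with 318 DEGs over all genes and 4 of the 40 other genes called. Of all tested genes, 1.34% were called lower and 0.869% were lower DEGs under this block. The deviations of same-numbered libraries from their group means correlated at 0.12, -0.27 and -0.22 across genes. Those of differently numbered libraries correlated at -0.29 to 0.39. With 3 libraries in a group, these values cannot tell whether the numbers pair the samples.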
